A study of Homo sapiens with 16 samples.

Results

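The genes described here encode the machinery that displays peptides on MHC class I molecules: the class I heavy chains HLA-B, HLA-C and HLA-E, their light chain B2M, the peptide transporter subunits TAP1 and TAP2, the loading chaperone TAPBP, and the immunoproteasome subunits PSMB8 and PSMB9. They were chosen by symbol, 9 of the 56832 genes in the count table, and all 9 were among the 23100 genes with enough reads to be tested. H69M and H69, which are lines of small cell lung carcinoma, supplied the RNA that was sequenced. Each line carried either a stably expressed hairpin against EIF6 (sheIF6, labelled as eIF6 knockdown, from lentivirus) or the hairpin shNTC (labelled WT). All cells grew in RPMI 1640 with serum. From each, cytoplasmic RNA was taken from a detergent lysate made with cycloheximide, and polysomal RNA from sucrose gradient fractions. The 8 groups were therefore H69M sheIF6 polysomal, H69M sheIF6 cytoplasmic, H69M shNTC polysomal, H69M shNTC cytoplasmic, and the same 4 in H69, with 2 libraries in each group and 16 in all. The labels name 1 sheIF6 and 1 shNTC cell population per line and do not say how H69M was derived, whether the lines were cloned or whether numbered libraries came from separate cultures, so a p-value here speaks to the spread among the libraries alone.

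Class I molecules carry peptides cut from proteins inside the cell to its surface, where CD8 T cells read them. The proteasome cuts the proteins, and interferon exchanges its constitutive catalytic subunits for immunoproteasome subunits such as PSMB8 and PSMB9. TAP1 and TAP2 form a pump that moves peptides into the endoplasmic reticulum, tapasin (TAPBP) holds the empty class I molecule at the pump, and no class I molecule is stable at the surface without B2M. Transcription of these genes is driven by the interferon-regulated factor IRF1, by NF-kB, and by NLRC5, the class I transactivator, which acts at a promoter module called SXY. Small cell lung cancer of the neuroendocrine kind is known for low class I expression.

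Of the 9 genes, 8 lie in the MHC on chromosome 6 and B2M lies on chromosome 15. In GENCODE v29 on GRCh38, HLA-E spans chr6:30489467-30494205 on the plus strand, HLA-C spans chr6:31268749-31272130 and HLA-B chr6:31269491-31357188, both on the minus strand. TAP2 (chr6:32821833-32838780), PSMB8 (chr6:32840717-32844703) and TAP1 (chr6:32845209-32853978) lie on the minus strand and PSMB9 (chr6:32844136-32859585) on the plus strand, so PSMB9 overlaps both PSMB8 and TAP1. TAPBP spans chr6:33299694-33314387 on the minus strand and B2M spans chr15:44711487-44718877 on the plus strand. The annotated HLA-B span holds a long transcript whose exons overlap those of HLA-C, and the exons of PSMB8 and PSMB9 overlap on opposite strands. Exons of TAP1, PSMB8 and PSMB9 also overlap PSMB8-AS1, a long non-coding RNA, and those of TAP2 overlap AL669918.1. The library kit does not mark strand, so reads of overlapping partners on opposite strands cannot be told apart by strand. HLA-B and HLA-C lie on the same strand, where strand would not separate them. Reads shared by the near-identical HLA genes make the split between HLA-B, HLA-C and HLA-E uncertain.

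Because all 9 genes were higher in H69M, their promoters were read for known class I motifs. RefSeq promoters (GRCh38.p14, 250 bases before the start, both strands searched) were matched for 8 of the 9 genes, with 10 entries in all, since PSMB8 and TAP1 have 2 starts each. HLA-E was not matched. The letters AANNGAAA, the core of an interferon regulatory factor site, stood in the promoters of 6 of the 8 genes, against 20.3% of 35116 promoters. The NF-kB consensus, a motif of 10 letters whose matches can overlap each other, stood in 5 of the 8, against 5.21% of all. TGACG followed by ATTGG after 15 to 25 bases, which are parts of the SXY module, stood in HLA-B, HLA-C and B2M, against 0.407% of all. The 6 stretches that follow are shown because they hold all the matches of these 3 motifs in the 8 matched genes. They are written 5′ to 3′ on the strand of each gene, with the matches in capitals.

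HLA-B, chr6:31357246-31357366, minus strand: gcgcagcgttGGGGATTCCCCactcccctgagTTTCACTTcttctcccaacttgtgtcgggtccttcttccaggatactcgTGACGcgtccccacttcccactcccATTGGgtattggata
HLA-C, chr6:31272158-31272274, minus strand: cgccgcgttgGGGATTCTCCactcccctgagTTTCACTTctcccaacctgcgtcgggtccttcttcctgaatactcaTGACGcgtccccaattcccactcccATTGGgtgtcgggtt
B2M, chr15:44711365-44711482, plus strand: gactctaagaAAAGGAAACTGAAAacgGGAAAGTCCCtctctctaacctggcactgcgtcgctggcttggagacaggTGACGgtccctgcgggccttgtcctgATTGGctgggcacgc
TAP1, chr6:32853757-32853848, minus strand: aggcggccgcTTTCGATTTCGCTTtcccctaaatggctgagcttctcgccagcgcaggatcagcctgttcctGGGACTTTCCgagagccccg
TAPBP, chr6:33314079-33314144, minus strand: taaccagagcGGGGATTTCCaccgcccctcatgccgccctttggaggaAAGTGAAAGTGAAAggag
TAP2, chr6:32838778-32838811, minus strand: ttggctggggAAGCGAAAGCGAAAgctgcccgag

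HLA-B and HLA-C share the order of an NF-kB match, an interferon factor core, and TGACG with ATTGG. B2M has 2 overlapping interferon factor cores before an NF-kB match and then TGACG with ATTGG. TAP1, TAP2 and TAPBP also have 2 overlapping cores each, and in TAP1 and TAPBP an NF-kB match stands in the same stretch. The windows of PSMB8 and PSMB9 hold none of these 3 motifs. The RefSeq starts of TAP1 and PSMB9 lie 488 bases apart on opposite strands. A match of letters is a description and not a measured site.

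Library totals ran between 36005326 and 87269772 counts. EIF6, the hairpin's target and a ribosome maturation factor, had 161 and 96.3 CPM, the scaled count of a gene relative to the library's size, in H69M sheIF6 cytoplasmic RNA and 204 and 165 CPM in H69M shNTC cytoplasmic RNA. In H69 cytoplasmic RNA it had 65.0 and 67.7 CPM with sheIF6 and 116 and 112 CPM with shNTC. Every sheIF6 library lay below both shNTC libraries of its line and fraction, although the fall passed the test in none of the 4 comparisons (edgeR adjusted p between 0.204 and 1). The labelled small cell identity was checked on marker lists. Summed over 11 neuroendocrine genes, levels ran between 601 and 1440 CPM in H69M and between 2510 and 5420 CPM in H69. UCHL1, at 417 to 893 CPM in H69M and 339 to 1190 CPM in H69, carried much of the H69M sum. The median ratio of the 11 genes, H69M over H69, was 0.019 to 0.0694 across the hairpins and fractions. Summed over 8 non-neuroendocrine genes, levels ran between 3930 and 6840 CPM in H69M and between 80.8 and 254 CPM in H69. CD44, at 77.9 to 253 CPM in H69, carried most of the H69 sum. Some libraries of each line held traces of genes of the other. In H69 shNTC cytoplasmic replicate 1 the median of 8 H69M marker genes was 0.59% of the H69M level, and in the other H69 libraries it was at most 0.099%. INSM1, a neuroendocrine factor, reached 13.5% of its H69 level in H69M shNTC polysomal replicate 2 and 7.85% in H69M sheIF6 polysomal replicate 2, against 0.105% in H69M shNTC cytoplasmic replicate 1.

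All 9 genes were detected in every H69M library, and H69 held only part of the set at more than trace levels. In each of the 9 genes every H69M library lay above every H69 library, which held for 13.2% of all tested genes. In H69 the light chain B2M, the chaperone TAPBP and, at a low level, HLA-C were present, while HLA-B, HLA-E, TAP1, TAP2, PSMB8 and PSMB9 were at or near 0. In bulk RNA, fewer cells that express a gene and less RNA per cell cannot be told apart.

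**Figure D1:**
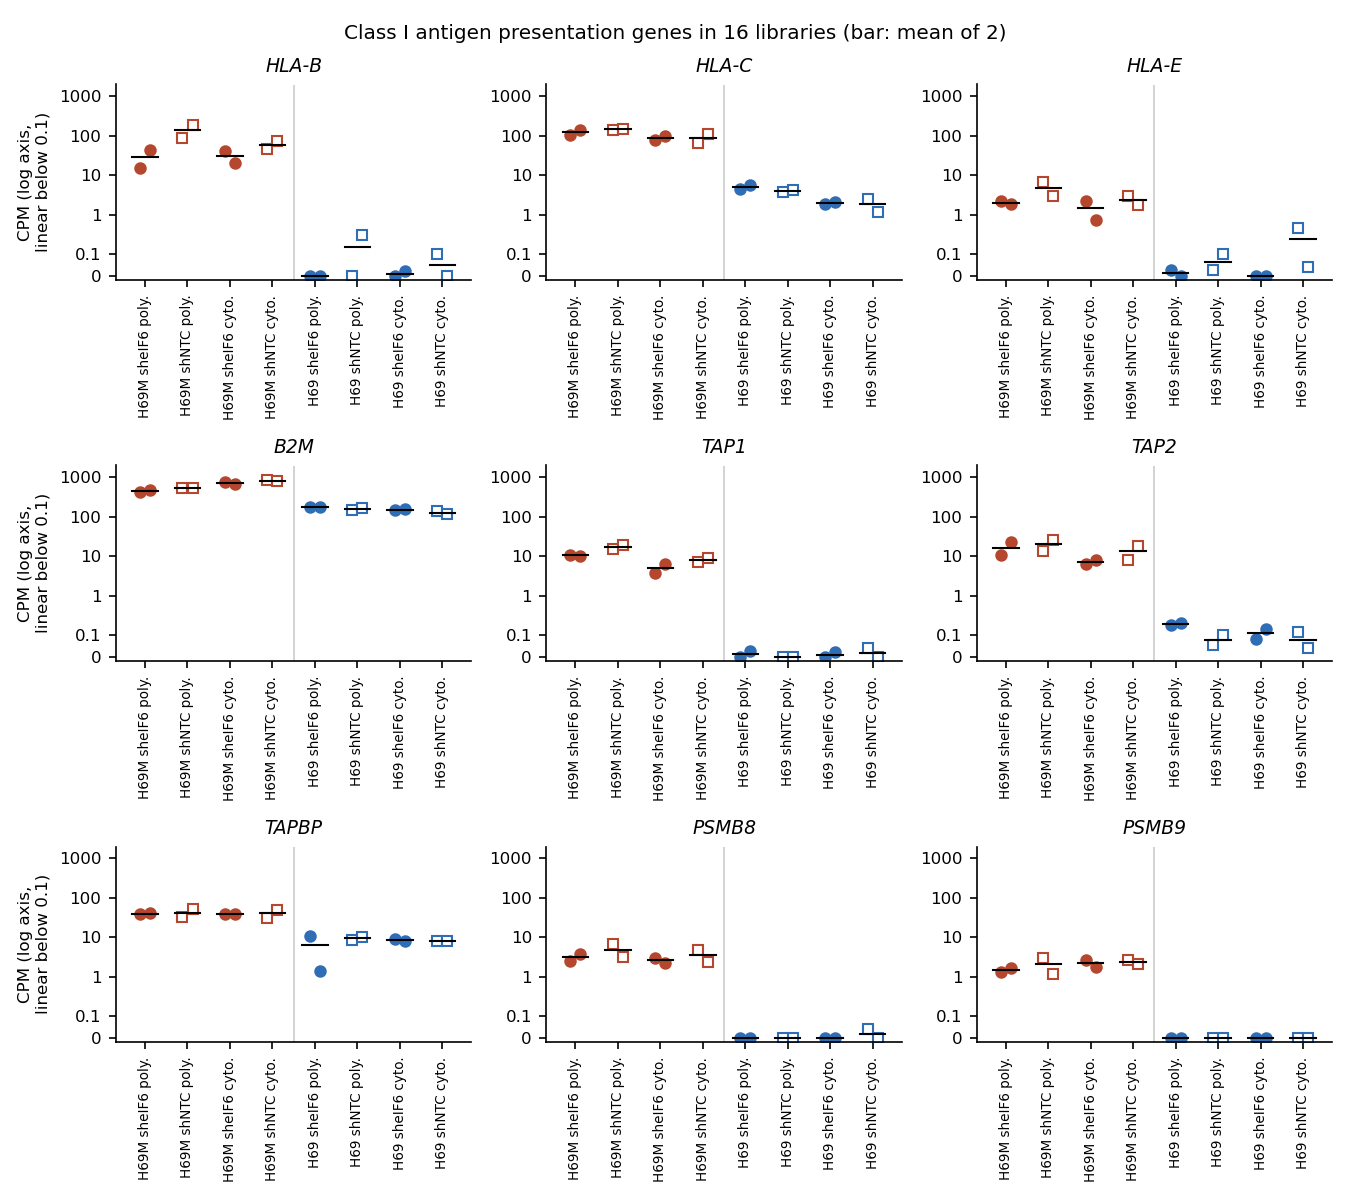
CPM of the 9 class I genes in each library, scaled by the trimmed mean of M values (log axis, linear below 0.1 CPM). Filled circles are sheIF6 and open squares shNTC libraries, red H69M and blue H69, and the bar is the mean of the 2 libraries of a group. In each panel the 8 H69M libraries lie above the 8 H69 libraries, with PSMB9 at 0 in H69.

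HLA-B, a classical heavy chain that presents peptides to CD8 T cells, was nearly absent in H69. Its H69M libraries held 15.6 and 43.8 CPM in sheIF6 polysomal RNA, 40.7 and 20.5 CPM in sheIF6 cytoplasmic RNA, 85.5 and 188 CPM in shNTC polysomal RNA, and 46.6 and 71.7 CPM in shNTC cytoplasmic RNA. The 8 H69 libraries summed to 18 counts, with 5 libraries at 0, and the highest, shNTC polysomal replicate 2 with 12 counts, reached 0.297 CPM. That library held 0.217% of the H69M level of HLA-B, beside a median of 0.0573% for the 8 H69M marker genes; their part in these counts was not tested.

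HLA-C, the other classical heavy chain, was present in both lines. It ran between 65.4 and 150 CPM in H69M (median 107 CPM over 8 libraries) and between 1.14 and 5.75 CPM in H69 (median 3.1 CPM). The non-classical HLA-E presents signal peptides of other class I chains to NK cell receptors. Among the listed heavy chains HLA-B, HLA-C and HLA-E it was the least abundant in H69M, between 0.736 and 6.71 CPM. In H69 it had 31 counts over 8 libraries, of which 23 were in shNTC cytoplasmic replicate 1, and 3 libraries were at 0. That replicate, the library with the H69M traces above, held 19.3% of the H69M level of HLA-E. The median of the 8 H69M marker genes there was 0.59%, and their part in these counts was not tested.

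B2M was the most abundant of the 9 in both lines and differed least between them with TAPBP. Its H69M libraries held 413 and 468 CPM in sheIF6 polysomal RNA, 774 and 689 CPM in sheIF6 cytoplasmic RNA, 526 and 540 CPM in shNTC polysomal RNA, and 845 and 790 CPM in shNTC cytoplasmic RNA. In H69 it held 172 and 175 CPM in sheIF6 polysomal RNA, 145 and 154 CPM in sheIF6 cytoplasmic RNA, 148 and 167 CPM in shNTC polysomal RNA, and 139 and 116 CPM in shNTC cytoplasmic RNA. Polysomal values lay below cytoplasmic values in H69M and above them in H69.

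The transporter subunits fell on the same side. TAP1 ran between 3.73 and 19.3 CPM in H69M and had 4 counts over the 8 H69 libraries, 5 of them at 0. TAP2 ran between 6.15 and 26.1 CPM in H69M and between 0.04 and 0.195 CPM in H69, where no library was at 0. TAPBP ran between 30.2 and 52.4 CPM in H69M. In H69 it held between 8.16 and 10.9 CPM in 7 libraries, and 1.39 CPM in sheIF6 polysomal replicate 2, whose 57 counts set it far below the other 7.

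The immunoproteasome subunits were at or near 0 in H69. PSMB8 ran between 2.22 and 6.61 CPM in H69M and had 2 counts over the 8 H69 libraries, both in shNTC cytoplasmic replicate 1. PSMB9 ran between 1.16 and 2.9 CPM in H69M and had 0 counts in all 8 H69 libraries.

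Levels of different genes were compared per kilobase of the principal GENCODE transcript. In H69M shNTC cytoplasmic RNA the order of mean levels was B2M at 480 ± 22.7 CPM per kb, HLA-C at 56.8 ± 20.1, HLA-B at 38.2 ± 11.5, TAPBP at 21.2 ± 7.37, TAP2 at 5.37 ± 2.97, PSMB8 at 3.16 ± 1.54, PSMB9 at 2.98 ± 0.537, TAP1 at 2.71 ± 0.385 and HLA-E at 0.897 ± 0.322 (SD, n = 2). The libraries of HLA-C and HLA-B overlapped, as did those of each neighbouring pair between TAP2 and TAP1. In H69 shNTC cytoplasmic RNA B2M came first at 74.7 ± 9.24 CPM per kb, followed by TAPBP at 4.33 ± 0.0138 and HLA-C at 1.17 ± 0.608 (SD, n = 2). Each of these was separate from the next, and the other 6 genes lay at or below 0.094 CPM per kb, with overlapping libraries.

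The fit across all genes compared H69M with H69 in each hairpin and fraction. All 9 genes were higher in H69M in shNTC cytoplasmic RNA, where 16.2% of all tested genes were called higher and 14.1% lower, with a median fold of at least 78.8 over the 9. All 9 were also higher in shNTC polysomal RNA (18.4% of all genes higher, 15.6% lower), in sheIF6 cytoplasmic RNA (16.9% higher, 14.6% lower) and in sheIF6 polysomal RNA (19% higher, 17.3% lower). The median folds there were at least 76.9, 62.5 and 85.6. In all 4 comparisons genes at 0 counts in H69 were entered at the bound that 3 counts over the group give, so each median is a lower bound. The median log2 change of all genes was close to 0 in each, at -0.01, 0.02, 0.02 and 0.02. The low class I level of H69 was known when these genes were listed, so the counts describe the list.

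**Figure D2:**
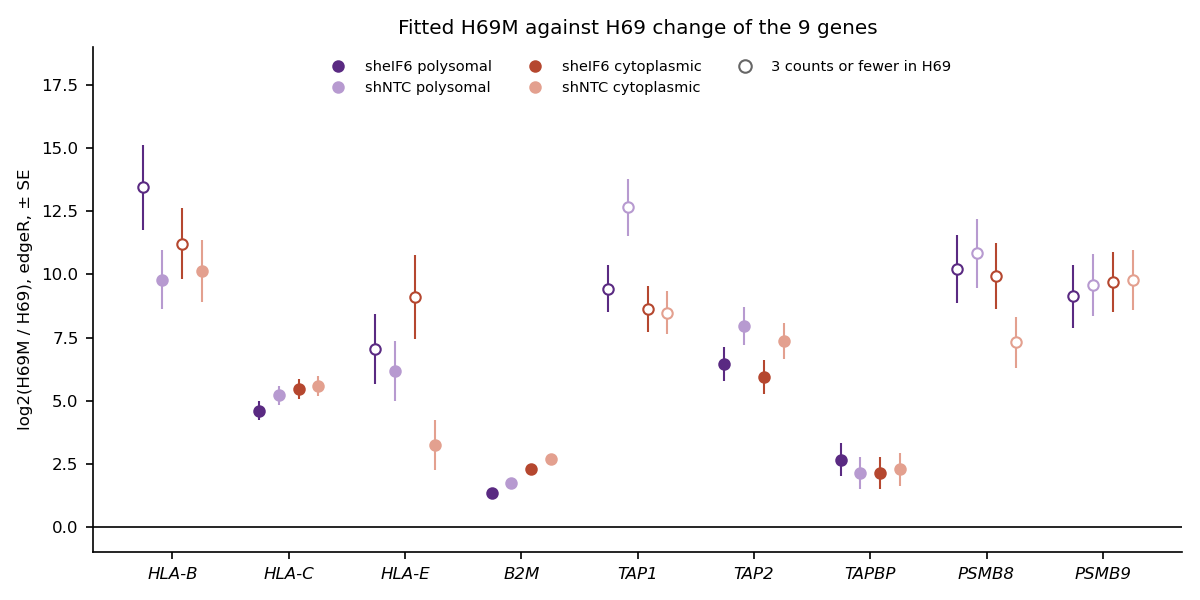
Fitted log2 change of H69M over H69 for the 9 genes (edgeR, bars ± SE), in sheIF6 and shNTC libraries of each fraction. Open circles mark genes with 3 counts or fewer in the H69 group, whose fitted value depends on the prior count. All 36 values lie above 0, and B2M and TAPBP lie lowest.

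Among the heavy chains, HLA-C rose by 5.60 on the log2 scale in shNTC cytoplasmic RNA (SE 0.40, edgeR adjusted p = 1.62e-06), a mean level 48.5 times that of H69, and by 6.26 without H69 shNTC cytoplasmic replicate 1. Its ratios in the other comparisons were 37.1 in shNTC polysomal, 43.9 in sheIF6 cytoplasmic and 24.3 in sheIF6 polysomal RNA. HLA-B rose by 10.15 (SE 1.23, adjusted p = 0.000148), a ratio of 1210 set against 5 counts in H69. All 5 were in H69 shNTC cytoplasmic replicate 1, the library with the H69M traces, and the fitted change ran between 9.20 and 14.43 when a library was left out, the highest without that one. In sheIF6 polysomal RNA, where H69 had 0 counts of HLA-B, it was at least 805-fold higher in H69M. HLA-E rose by 3.24 (SE 0.99, adjusted p = 0.0273), a ratio of 9.54, and both the size and the call depended on single libraries. The call was also lost when the compared groups alone were fitted (edgeR adjusted p = 0.0847). Without H69 shNTC cytoplasmic replicate 1, which held 23 of the 25 H69 counts, HLA-E rose by 5.77. Without H69 shNTC cytoplasmic replicate 2 its adjusted p was 0.136, and without H69M shNTC cytoplasmic replicate 1 it was 0.103. In shNTC polysomal RNA, where H69 had 5 counts of HLA-E, the ratio was 76.9 (adjusted p = 0.00197).

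B2M rose by 2.68 in shNTC cytoplasmic RNA (SE 0.20, adjusted p = 1.83e-06), a ratio of 6.42. The ratio was 4.9 in sheIF6 cytoplasmic RNA, 3.38 in shNTC polysomal RNA and 2.54 in sheIF6 polysomal RNA. B2M passed the test in each of the 4 comparisons whichever library was left out.

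TAP2 rose by 7.36 in shNTC cytoplasmic RNA (SE 0.73, adjusted p = 1.41e-05), a ratio of 171 against 8 counts in H69. It rose by 8.30 without H69 shNTC cytoplasmic replicate 1 and by 6.65 without H69M shNTC cytoplasmic replicate 2. TAP1 had 2 counts in H69 there, and its ratio was 405 with a counting interval between 112 and 3350. Both counts were in H69 shNTC cytoplasmic replicate 1. In shNTC polysomal RNA, where H69 had 0 counts, TAP1 was at least 451-fold higher in H69M. PSMB8 was at least 127-fold and PSMB9 at least 53-fold higher in that fraction.

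TAPBP had the least firm difference. It rose by 2.29 in shNTC cytoplasmic RNA (SE 0.64, adjusted p = 0.0177), with 30.2 and 49.8 CPM in H69M and 8.16 and 8.20 CPM in H69, a ratio of 4.89. With replicate number as a block within each line its adjusted p was 0.0714 there, 0.0937 in shNTC polysomal and 0.0763 in sheIF6 cytoplasmic RNA. In sheIF6 polysomal RNA the call held with the block (edgeR adjusted p = 0.00753, and 0.0115 with the block). It was lost when the compared groups alone were fitted (log2 change 2.71, edgeR adjusted p = 0.127). The log2 change there was 2.68 in the main fit, 4.82 without H69 sheIF6 polysomal replicate 1 and 1.85 without replicate 2. The shNTC cytoplasmic call was lost without H69 replicate 1 (0.102), H69 replicate 2 (0.0987) or H69M replicate 2 (0.0932). The shNTC polysomal call was lost without H69 replicate 1 (0.125), H69 replicate 2 (0.0891) or H69M replicate 2 (0.0981). In sheIF6 cytoplasmic RNA the call was lost without any 1 of its 4 libraries, with adjusted p between 0.0658 and 0.129. The levels themselves did not overlap between the lines.

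Of 18 further genes of the pathway, 17 were tested in shNTC cytoplasmic RNA, where 16.2% of all tested genes were called higher and 14.1% lower. In H69M 8 of the 17 rose and 0 fell, with a median ratio of 1.69. The genes that rose included ERAP2 and ERAP1, the aminopeptidases that trim peptides in the endoplasmic reticulum, and TAPBPL, a tapasin-like editor. ERAP2 averaged 227 ± 4.37 CPM in H69M and 2.93 ± 0.523 CPM in H69, ERAP1 46.6 ± 6.02 CPM in H69M and 10.6 ± 0.0678 CPM in H69, and TAPBPL 27.7 ± 7.26 CPM in H69M and 5.3 ± 2.03 CPM in H69 (SD, n = 2 each). The ERAP1 call was lost without H69 shNTC cytoplasmic replicate 1 or 2, with an adjusted p of up to 0.0661. Of the heavy chain genes outside the 9, HLA-F averaged 1.82 ± 0.377 CPM in H69M and had 1 count in H69, and HLA-G had 0 counts in every library.

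The constitutive proteasome subunits did not follow. PSMB5, PSMB6 and PSMB7, which PSMB8, PSMB9 and PSMB10 replace in the immunoproteasome, changed by -0.12, 0.13 and 0.11 on the log2 scale in shNTC cytoplasmic RNA, with adjusted p between 0.753 and 0.872. In shNTC polysomal RNA PSMB5 fell by 1.09 (adjusted p = 0.0176) and PSMB7 fell by 0.73 (adjusted p = 0.0242). The PSMB5 call was lost without H69 shNTC polysomal replicate 2 or H69M shNTC polysomal replicate 1 (adjusted p of up to 0.152), and the PSMB7 call without any 1 of the 4 libraries compared (up to 0.138). In sheIF6 polysomal RNA PSMB7 fell by 1.09 (adjusted p = 0.00272). PSMB10 averaged 4.33 ± 0.38 CPM in H69M and 4.14 ± 0.992 CPM in H69 (SD, n = 2 each, adjusted p = 0.935).

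Set as a share of each pair per kilobase, PSMB8 made up between 1.18% and 6.34% of PSMB8 plus PSMB5 in H69M and at most 0.0361% in H69. PSMB9 made up between 1.11% and 8.93% of PSMB9 plus PSMB6 in H69M and 0 in all 8 H69 libraries. PSMB10 made up between 0.362% and 2.26% of PSMB10 plus PSMB7 in H69M and between 0.352% and 2.36% in H69, so the lines overlapped. The highest shares of PSMB8 and PSMB9 were in the replicate 1 libraries of H69M shNTC. There PSMB6 was at 66.9 CPM per kb in polysomal and 34.2 in cytoplasmic RNA, below every other H69M library (113 to 194 CPM per kb).

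**Figure D3:**
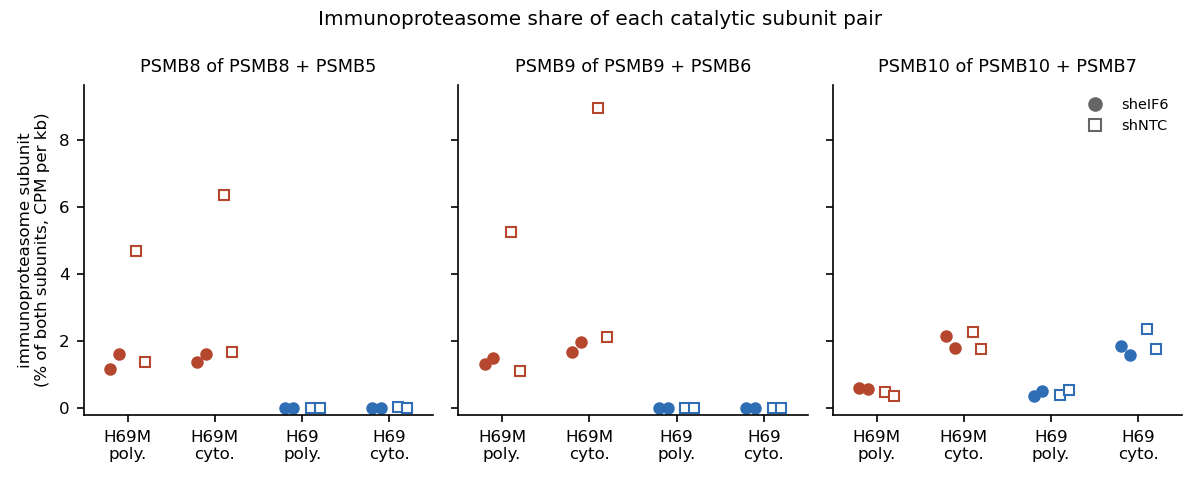
Share of the immunoproteasome subunit in each catalytic pair, in percent of both subunits' CPM per kb, with 1 point per library (circles sheIF6, squares shNTC, red H69M, blue H69). PSMB8 and PSMB9 reach 6.34% and 8.93% in H69M and stay at or near 0 in H69, while PSMB10 covers the same range in both lines and differs by fraction.

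Among 24 regulators of class I genes, 12 rose in H69M and 0 fell in shNTC cytoplasmic RNA, with a median ratio of 1.9. Over all tested genes 16.2% were called higher and 14.1% lower in that comparison. NLRC5 had 23.4 and 15.4 CPM in H69M and 0.644 and 0.520 CPM in H69 there (log2 change 5.05, SE 0.76, adjusted p = 0.000314). IRF1 had 119 and 34.1 CPM in H69M and 7.20 and 9.18 CPM in H69 (adjusted p = 0.00124), and its H69M libraries differed from each other more than 3-fold. SOCS1, a feedback inhibitor of interferon signalling, averaged 23 ± 1.73 CPM in H69M and 0.608 ± 0.465 CPM in H69, and NFKB1 48.5 ± 11.8 CPM in H69M and 7.46 ± 1.94 CPM in H69 (SD, n = 2 each). In sheIF6 polysomal RNA IRF1 did not pass (adjusted p = 0.0522, and 0.00125 with the block), and NLRC5 passed in all 4 comparisons. The 6 subunits of PRC2, which deposits a repressive histone mark at silenced class I genes in some cancers, had median ratios of 0.766 to 0.856 across the 4 comparisons. Of these subunits 1 was called, lower in sheIF6 cytoplasmic RNA, where 14.6% of all tested genes were called lower. With the block 2 of them were called lower in each of the other 3 comparisons.

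Interferon-stimulated genes outside the pathway were higher too. Of 34, 28 rose in H69M and 0 fell in shNTC cytoplasmic RNA, beside 16.2% and 14.1% of all tested genes, with a median ratio of 34.2. Between 28 and 30 rose in the other 3 comparisons, beside 16.9% to 19% of all tested genes. IFIT3, an antiviral RNA-binding protein, averaged 35.7 ± 19 CPM in H69M and 0.049 ± 0.0411 CPM in H69, and MX1, an antiviral GTPase, 28.5 ± 21.7 CPM in H69M and 0.0586 ± 0.0828 CPM in H69 (SD, n = 2 each). IFI44L averaged 37.6 ± 15 CPM and IFITM1 10.1 ± 7.67 CPM in H69M (SD, n = 2 each), with 2 counts of each in H69. Of the 10 class II pathway genes listed only CD74, the invariant chain, had enough reads to be tested. HLA-DOB, a class II gene outside that list, lies within 100000 bases of TAP1, TAP2, PSMB8 and PSMB9. It was tested and called higher in H69M. CD74 averaged 0.18 ± 0.0431 CPM in H69M and 1.54 ± 1.69 CPM in H69 (SD, n = 2 each), and was called in none of the 4 comparisons.

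Ligands that T and NK cells read beside class I also differed. In shNTC cytoplasmic RNA 10 of 13 rose in H69M and 1 fell, beside 16.2% and 14.1% of all tested genes. CD274 (PD-L1) averaged 16.3 ± 5.64 CPM in H69M and 0.08 ± 0.113 CPM in H69, and PDCD1LG2 (PD-L2) 14 ± 0.0801 CPM in H69M and 0.0683 ± 0.0966 CPM in H69 (SD, n = 2 each). CD276 averaged 52.2 ± 15.8 CPM in H69M and 1.94 ± 0.843 CPM in H69, and LGALS9 10.1 ± 10.5 CPM in H69M and 0.515 ± 0.12 CPM in H69 (SD, n = 2 each). The ligand that fell was CD47, a signal that restrains macrophages, with 95.5 ± 0.509 CPM in H69M and 181 ± 29 CPM in H69 (SD, n = 2 each, adjusted p = 0.00298).

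Markers of other cells were read beside these genes. The 14 immune cell markers summed to between 3.45 and 10.4 CPM in H69M, with 5 to 9 of them at 0, and to between 3.73 and 12.4 CPM in H69, with 3 to 9 at 0. PTPRC, which marks all white blood cells, averaged 0.181 ± 0.0795 CPM in H69M and 0.975 ± 0.305 CPM in H69 in shNTC cytoplasmic RNA (SD, n = 2 each). CSF1R, a receptor of macrophages, went the other way, with 2.45 ± 0.565 CPM in H69M and 0.128 ± 0.0677 CPM in H69 there (SD, n = 2 each, adjusted p = 0.00144), and was called higher in H69M in all 4 comparisons. Of the 6 immune markers with enough reads to be tested, 1 or 2 were called higher in each comparison, and between 0 and 2 lower. Over all tested genes 16.2% to 19% were called higher and 14.1% to 17.3% lower in these comparisons. The 9 fibroblast and endothelial markers summed to between 10200 and 38500 CPM in H69M and between 119 and 511 CPM in H69. COL1A1, a collagen, averaged 7840 ± 2210 CPM in H69M and 1.9 ± 1.45 CPM in H69 in shNTC cytoplasmic RNA, and DCN 0.299 ± 0.211 CPM in H69M with 0 counts in H69 (SD, n = 2 each). COL1A1 and COL1A2 carried most of that sum. Of the 9, 6 were called higher and 0 lower in shNTC cytoplasmic RNA, beside 16.2% and 14.1% of all tested genes. The endothelial markers PECAM1 and CDH5 were called in none of the 4 comparisons, with medians of 0.186 and 0.139 CPM in H69M and 0.208 and 0.0997 CPM in H69 over 8 libraries. VWF, also an endothelial marker, had a higher median in H69M, 10.3 CPM against 1.73 CPM in H69. The fibroblast markers LUM, PDGFRB and COL3A1 had medians of 51.2, 77.7 and 126 CPM in H69M and 0.193, 0 and 0 CPM in H69. The part of immune, fibroblast or endothelial cells in the class I difference was not tested.

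The MHC was also read as a region, without the members that lie in it. Between HLA-E and TAPBP, chr6:30489467-33314387, 82 other protein-coding genes were tested. In shNTC cytoplasmic RNA 13 of them were called higher in H69M, 15.9% against 20.2% of all protein-coding genes. In that comparison 1 was called lower, where 14.1% of all tested genes were called lower. In shNTC polysomal, sheIF6 cytoplasmic and sheIF6 polysomal RNA the share called higher in the interval was 13.4%, 14.6% and 12.2%, against 22.7%, 21.4% and 23% of all. There 6, 5 and 6 of the 82 were called lower, where 15.6%, 14.6% and 17.3% of all tested genes were called lower. The part of the region in the class I difference was not tested.

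Polysomal over cytoplasmic level, a measure of how much of an mRNA sits on ribosomes, was read for each gene in each line and hairpin. Of the 9 genes, B2M passed the test in H69M sheIF6, where it was lower on polysomes, and HLA-C passed in H69 sheIF6, where it was higher, and neither passed in the shNTC libraries. With libraries of equal number set against each other, the B2M ratio was 0.534 to 0.683 in all 4 H69M pairs and 1.07 to 1.44 in all 4 H69 pairs. The median log2 change of all genes was -0.02 in H69M sheIF6, 0.00 in H69M shNTC, -0.11 in H69 sheIF6 and -0.14 in H69 shNTC. With library size alone as scaling these medians were -0.17, -0.25, -0.44 and -0.49, and B2M in H69 sheIF6 then turned to -0.11, still above the median of its comparison. For HLA-C the ratio was 1.37 to 2.17 in H69M and 1.52 to 3.61 in H69, and for TAPBP 1.03 to 1.05 in H69M and 0.169 to 1.26 in H69.

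**Figure D4:**
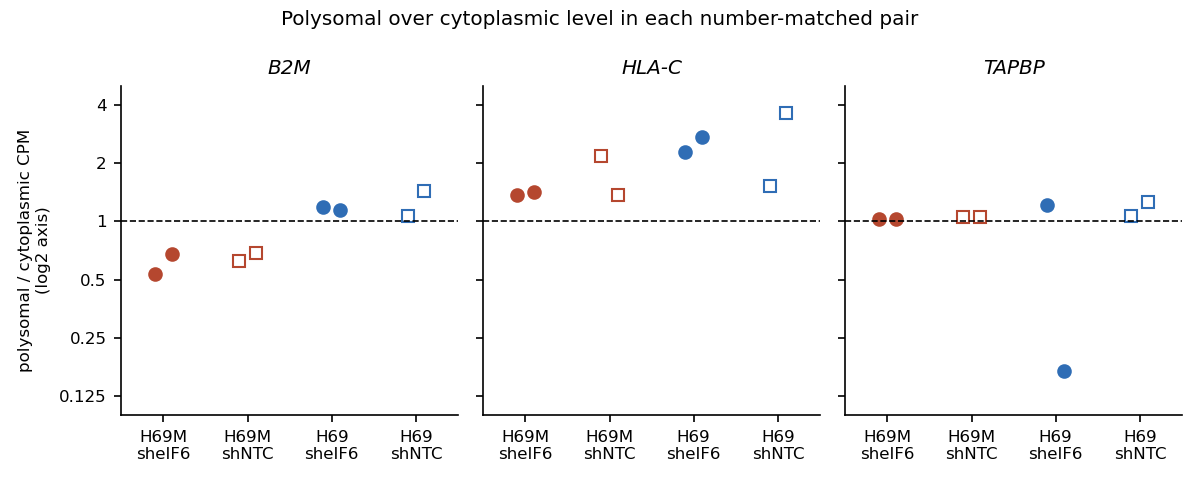
Polysomal over cytoplasmic CPM for B2M, HLA-C and TAPBP in each pair of libraries with the same number (log2 axis, circles sheIF6, squares shNTC, red H69M, blue H69; the dashed line is 1). B2M lies below 1 in the 4 H69M pairs and above 1 in the 4 H69 pairs, while HLA-C lies above 1 in all 8 and 1 H69 sheIF6 pair of TAPBP lies at 0.169.

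In H69M sheIF6, 1 of the 9 genes passed the test: B2M was lower on polysomes by a log2 change of -0.73 (SE 0.19, edgeR adjusted p = 0.0466), where 4.17% of all tested genes were called in either direction and 2.26% were called lower. This call did not survive the loss of any 1 of the 16 libraries, with adjusted p between 0.0593 and 0.204. In H69M shNTC B2M changed by -0.62 (SE 0.19, adjusted p = 0.0763), and 0 of the 9 genes passed where 4.7% of all genes were called in either direction. There 2 of the 9, B2M and HLA-C, had an unadjusted p under 0.05, DESeq2 called 2 (B2M and TAP1), and limma-voom called 0.

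In H69 sheIF6, 1 of the 9 passed: HLA-C was higher on polysomes by 1.34 (SE 0.35, adjusted p = 0.0299), with 4.34 and 5.75 CPM in polysomal and 1.89 and 2.10 CPM in cytoplasmic RNA. There 9.66% of all genes were called in either direction and 5.66% were called higher. The call was lost without any 1 of its 4 libraries, with adjusted p of 0.217 and 0.146 without cytoplasmic replicates 1 and 2, and 0.0809 and 0.154 without polysomal replicates 1 and 2. In H69 shNTC HLA-C changed by 1.12 (SE 0.35, adjusted p = 0.054), and passed with the block (0.0269), without H69 shNTC cytoplasmic replicate 1 (0.0445), and without H69M shNTC cytoplasmic replicate 1 (0.044) or 2 (0.0452). Without H69 shNTC cytoplasmic replicate 2 its change was 0.68 (adjusted p = 0.327), the furthest from a call. There 0 of the 9 passed and 1, HLA-C, had an unadjusted p under 0.05. HLA-E had 5 polysomal and 25 cytoplasmic counts, and TAP1 and PSMB8 each had 0 polysomal and 2 cytoplasmic counts. DESeq2 called 1 of the 9 and limma-voom 0, while 11.8% of all genes were called by edgeR.

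The other genes gave no call on polysomes in either line. In H69M sheIF6, TAP2 changed by 1.23 (adjusted p = 0.218), TAP1 by 1.04 (0.352), PSMB9 by -0.56 (0.722), HLA-C by 0.48 (0.476), HLA-E by 0.45 (0.865), PSMB8 by 0.29 (0.898), TAPBP by 0.05 (1) and HLA-B by -0.04 (1) on the log2 scale. In H69M shNTC the 3 largest changes were those of HLA-B at 1.21 (adjusted p = 0.413), TAP1 at 1.10 (0.291) and HLA-E at 1.05 (0.563). The number-matched ratio of HLA-B was 0.384 in the replicate 1 pair of H69M sheIF6 and 2.13 in the replicate 2 pair, on both sides of 1. In H69 sheIF6, TAP2 changed by 0.71 (adjusted p = 0.598, 15 polysomal and 11 cytoplasmic counts), B2M by 0.22 (0.528) and TAPBP by -0.49 (0.702). The other 5 had at most 1 count in a fraction. TAPBP passed when polysomal replicate 1 was left out (adjusted p = 0.0383), which leaves the library at 1.39 CPM as the polysomal group.

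The difference of B2M loading between the shNTC lines was a log2 change of -0.92 (H69M minus H69, SE 0.26), with an adjusted p of 0.386 and of 0.194 with the block. In this comparison 0 of the 23100 genes passed in edgeR, 0 in limma-voom and 194 in DESeq2, while 2127 had an unadjusted p under 0.05. DESeq2 gave B2M an adjusted p of 0.0175.

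EIF6 knockdown moved none of the 9 genes past the test in either line or fraction. In H69M cytoplasmic RNA, where 0.156% of all genes were called, 0 of the 9 passed and 0 had an unadjusted p under 0.05. In H69M polysomal RNA, where 0.0649% of all genes were called, 0 passed and 1, HLA-B, had an unadjusted p under 0.05. In H69, where 0% of genes were called in cytoplasmic and 0.00433% in polysomal RNA, 0 passed and 1, HLA-E in cytoplasmic RNA, had an unadjusted p under 0.05. DESeq2 and limma-voom also called 0 of the 9 in each of the 4.

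HLA-B had the largest change in H69M. On polysomes it held 15.6 and 43.8 CPM with sheIF6 and 85.5 and 188 CPM with shNTC, a log2 change of -2.20 (SE 0.78, adjusted p = 0.476, and 0.22 with the block). Both sheIF6 libraries lay below both shNTC libraries, and the number-matched ratios were 0.183 and 0.233. In cytoplasmic RNA it held 40.7 and 20.5 CPM with sheIF6 and 46.6 and 71.7 CPM with shNTC, a log2 change of -0.95 (SE 0.75, adjusted p = 0.687). The number-matched ratios there were 0.874 and 0.286, so the change of the replicate 1 pair was small.

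Of the other genes in H69M polysomal RNA, HLA-E changed by -1.26 (2.21 and 1.81 CPM with sheIF6, 6.71 and 2.92 CPM with shNTC, adjusted p = 0.772). TAP1 changed by -0.73 (10.5 and 10.3 CPM with sheIF6, 15.1 and 19.3 CPM with shNTC, adjusted p = 0.791). In cytoplasmic RNA TAP2 changed by -0.93 (6.15 and 7.92 CPM with sheIF6, 8.17 and 18.6 CPM with shNTC, adjusted p = 0.539) and HLA-E by -0.67 (adjusted p = 0.841). The other members lay between -0.67 and 0.01 in cytoplasmic and between -0.61 and -0.09 in polysomal RNA. Of these, TAPBP, PSMB8 and PSMB9 in both fractions, HLA-C in cytoplasmic and TAP2 in polysomal RNA changed sign when certain single libraries were left out. The median log2 change of the 9 was -0.45 in each fraction, beside 0.00 in cytoplasmic and -0.01 in polysomal RNA over all genes.

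Without overlap between the groups, 4 of the 9 (HLA-B, B2M, TAP1 and TAP2) lay lower with sheIF6 in both H69M cytoplasmic libraries, against 19.3% of all genes. In polysomal RNA 5 of the 9 (HLA-B, HLA-C, HLA-E, B2M and TAP1) did, against 16.7% of all genes. In neither fraction did any of the 9 lie higher without overlap. The share of all genes that lay higher without overlap is not given here, so that absence has no background beside it. NLRC5 held 17.5 and 17 CPM with sheIF6 and 47.4 and 29.1 CPM with shNTC on polysomes, and 9.22 and 8.94 CPM with sheIF6 and 23.4 and 15.4 CPM with shNTC in the cytoplasm. Its number-matched ratios ran between 0.37 and 0.586, and its change did not pass either (log2 changes -1.14 and -1.10, adjusted p = 0.685 and 0.553).

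**Figure D5:**
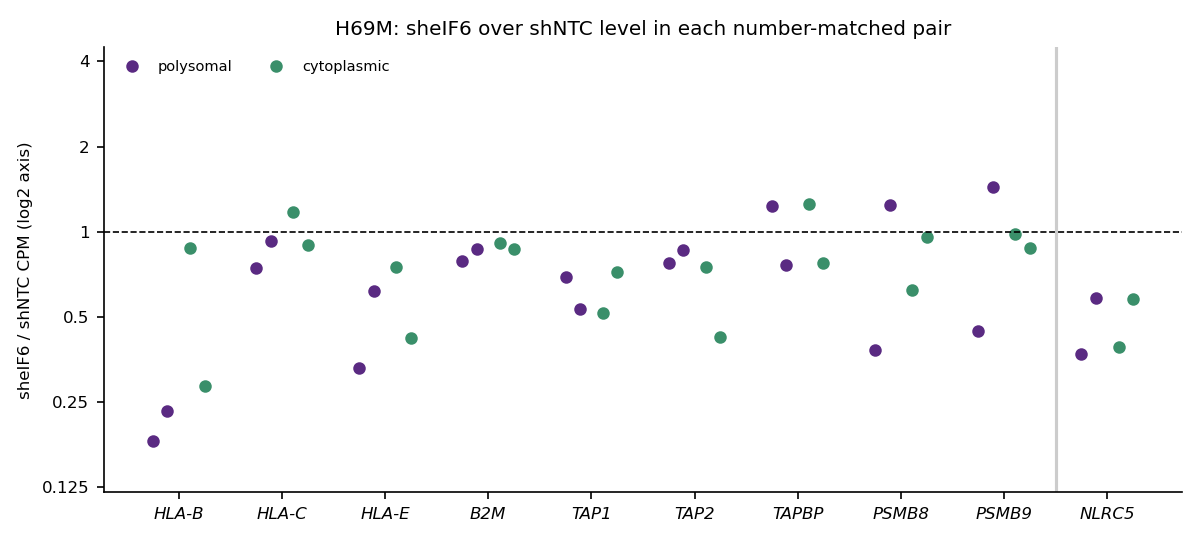
sheIF6 over shNTC CPM in H69M for the 9 genes and NLRC5, with 1 point for each pair of libraries of equal number (log2 axis; purple polysomal, green cytoplasmic; the dashed line is 1). HLA-B on polysomes lies lowest, at 0.183 and 0.233, and NLRC5 lies between 0.37 and 0.586 in all 4 pairs.

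The difference in knockdown change between the lines, H69M minus H69, passed for 0 of the 9 genes, where 0.0303% of all genes were called in cytoplasmic and 0.00433% in polysomal RNA. For B2M, with ratios of 0.786 to 0.916 in the 4 H69M pairs and 1.04 to 1.32 in the 4 H69 pairs, it was -0.39 in cytoplasmic and -0.41 in polysomal RNA on the log2 scale, each with an adjusted p of 1. In edgeR 1 of the 9, HLA-E in cytoplasmic RNA, had an unadjusted p under 0.05, and DESeq2 and limma-voom called 0 in both fractions.

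In H69 the 9 genes gave little to compare. HLA-B had 0 counts with sheIF6 and 12 with shNTC in polysomal RNA, and 1 with sheIF6 and 5 with shNTC in cytoplasmic RNA. HLA-E had 0 counts with sheIF6 and 25 with shNTC in cytoplasmic RNA. Of these, 23 were in shNTC cytoplasmic replicate 1, at 19.3% of the H69M level. HLA-C, TAPBP and B2M each had an adjusted p of 1 in both fractions, and the direction of HLA-C in cytoplasmic and of TAPBP in polysomal RNA turned when certain single libraries were left out. Polysome loading did not change under knockdown past the test for any of the 9, in H69M or in H69. In H69M the largest shifts of loading were -1.25 for HLA-B, 0.67 for TAP2 and -0.60 for HLA-E, each with an adjusted p of 1. Of all genes 0 passed in either line, where 392 in H69M and 383 in H69 had an unadjusted p under 0.05 and none of the 9 did. DESeq2 called 1 gene in H69M and 3 in H69, and limma-voom 0 in both.

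Within a line, the 9 genes did not vary as one. Over the 8 H69M libraries the highest level was 12 times the lowest for HLA-B, 9.13 for HLA-E, 5.18 for TAP1, 4.24 for TAP2, 2.97 for PSMB8, 2.51 for PSMB9, 2.29 for HLA-C, 2.05 for B2M and 1.74 for TAPBP. Each gene's log2 level was set against the mean of the other members over the 8 H69M libraries, which share line, fraction and hairpin structure. Against that mean Pearson's r was 0.80 for HLA-B, 0.64 for TAP1, 0.60 for HLA-E, 0.57 for TAP2, 0.53 for HLA-C and 0.49 for PSMB8, but 0.10 for TAPBP, -0.08 for PSMB9 and -0.28 for B2M. For NLRC5, set against the mean of all 9, it was 0.85.

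After the mean of each line was taken out, genes among those whose level over the 16 libraries was most like the mean of the 9 were SPHK1 (Pearson's r 0.85), BMP1 (0.79), MMP1 (0.79) and AXL (0.77), of 12685 ranked. SPHK1, a sphingosine kinase, averaged 8.28 ± 3.98 CPM with sheIF6 and 24.4 ± 0.217 CPM with shNTC in H69M cytoplasmic RNA, and 8.78 ± 1.94 CPM with sheIF6 and 36.3 ± 11.5 CPM with shNTC on polysomes (SD, n = 2 each). AXL, a receptor tyrosine kinase, averaged 105 ± 13.8 CPM with sheIF6 and 210 ± 78.7 CPM with shNTC in H69M cytoplasmic RNA (SD, n = 2 each). In H69 shNTC cytoplasmic RNA, the group of the library with H69M traces, MMP1 averaged 10 ± 13.8 CPM (SD, n = 2), so the 2 libraries of that group differed more than their mean. In H69M shNTC cytoplasmic RNA MMP1 averaged 2.64 ± 0.263 CPM (SD, n = 2), below that H69 mean. The part of the H69M traces in the likeness was not tested.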

How the data were processed

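The authors deposited a table of raw counts per gene for 16 libraries, in 8 groups of 2. The submitters' processing notes name STAR, HTSeq and the build GRCh38 (hg38); tool versions, annotation and strand setting are not given in the sources used here. Libraries were made with the NEBNext Ultra RNA kit, per the labels' protocols, which does not mark strand. All 16 columns were mapped by their labels.

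The members and all gene lists were chosen with earlier results of these data known. Counts were fitted with edgeR 4.0.16 (R 4.3.3): filterByExpr with a minimum count of 10 kept 23100 of 56832 genes, scaling was by the trimmed mean of M values, and a quasi-likelihood fit with robust dispersion had 1 mean for each of 8 groups and 8 residual degrees of freedom (common dispersion 0.153). The 17 comparisons were contrasts of these means, with Benjamini-Hochberg adjustment over all tested genes and a limit of 0.05. The fit was tested on simulated data. CPM are scaled by the same factors, and CPM per kb uses the length of the principal transcript in GENCODE v29, in which 156 of 156 listed genes had 1 position. Folds against a group at 0 counts use a floor of 3 counts over the group. Ratios against 1 to 3 counts carry a counting interval that covers counting error only, since reads without molecular identifiers are not independent molecules.

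Library totals ran between 36005326 and 87269772 counts. Alternatives were DESeq2 1.42.0, limma-voom (limma 3.58.1), 2 other scalings, no filter or a filter at 50 counts, fits of the compared groups alone, leaving out each library, and a block for replicate number. Equal numbers were treated as pairs within a line, because deviations from the group means correlated in every same-line pair of groups (r between 0.168 and 0.280 in 6 pairs of H69 groups, and between 0.172 and 0.578 in 6 pairs of H69M groups). Between lines r lay between -0.107 and 0.0457 in 16 pairs.

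Named genes were all 9 members where a member passed or their median log2 change was over 1, and otherwise those that passed, with or without the block, and the 3 with the largest change. From each other list up to 4 passing genes per direction with the largest change and at least 100 mean counts were eligible. NLRC5, IRF1, HLA-F, PSMB10, PSMB5, PSMB6 and PSMB7 were given in any case, as was EIF6. Genes most like the members were the 5 with the highest Pearson r. Some genes that these rules name, and 1 motif that was searched, are not reported here. Members with too few H69 counts for a fold are given by their counts.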

Additional observations from a re-analysis of the deposited data

Results flagged for a closer look

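B2M was singled out in a pair of comparisons because every pair of libraries of one line moved one way and every pair of the other line the opposite way. The share of all tested genes with such a pattern is not given here. The 4 pairs of a line mix hairpins or fractions, so they are not 4 replicates of a condition. Its polysomal over cytoplasmic ratio was below 1 in 4 of 4 H69M pairs and above 1 in 4 of 4 H69 pairs. The tested difference in the shNTC libraries was -0.92 on the log2 scale (H69M minus H69, SE 0.26, edgeR adjusted p = 0.386).

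Its sheIF6 over shNTC ratio was below 1 in 4 of 4 H69M pairs (0.786 to 0.916) and above 1 in 4 of 4 H69 pairs (1.04 to 1.32). The tested difference was -0.39 on the log2 scale in cytoplasmic RNA (H69M minus H69, SE 0.26) and -0.41 in polysomal RNA (SE 0.26), each with an edgeR adjusted p of 1. In that comparison 0 of the 9 genes passed in edgeR, DESeq2 or limma-voom in either fraction, and 1, HLA-E in cytoplasmic RNA, had an unadjusted p under 0.05. The part of depth or library quality in these patterns was not tested.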

How the results depend on the processing

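Without 1 library at a time, the number of the 9 genes called higher in H69M ran between 7 and 9 in shNTC cytoplasmic, 8 and 9 in shNTC polysomal and sheIF6 cytoplasmic, and 9 and 9 in sheIF6 polysomal RNA. With the replicate block within each line it was 8, 8, 8 and 9. With the compared groups alone, HLA-E in shNTC cytoplasmic and TAPBP in sheIF6 polysomal RNA were no longer called. Loading calls moved more. In H69 shNTC 1 gene (HLA-C) was called, in place of 0, with the scaling of DESeq2 in edgeR, with DESeq2, or when replicate number was a block in each line, and 0 to 1 when a library was left out. In H69M shNTC 1 was called with library size alone or the stricter filter and 2 with DESeq2, in place of 0. In H69 sheIF6 0 were called, in place of 1, with library size alone or limma-voom, and 0 to 1 when a library was left out. In H69M sheIF6 0 were called, in place of 1, with the scaling of DESeq2, no filter, the replicate block over both lines or the compared groups alone, and 0 whichever library was left out. The loading difference between the shNTC lines had 1 call with DESeq2 (B2M, adjusted p = 0.0175), in place of 0. The pairing by replicate number changed no other member's call than those given here or beside the results.

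Of the single-gene values followed through the alternatives, 1025 of 1072 kept their direction and side of the limit when a library was left out, and 580 of 601 under the other alternatives. Among them, those that reversed were loading changes that passed no test. In H69M sheIF6 HLA-B turned to 0.038 with the scaling of DESeq2 and 0.0383 with DESeq2, and ran between -0.98 and 0.53 when a library was left out, HLA-E between -0.14 and 1.44 and PSMB8 between -0.047 and 0.55. TAPBP there turned to -0.11 with library size alone and -0.0145 with no filter. In H69 B2M (sheIF6) turned to -0.11 with library size alone. Without 1 library, HLA-E (H69 shNTC) ran between -3.09 and 0.63 and TAPBP (H69 sheIF6) between -2.63 and 0.35. The loading change under knockdown ran between -0.22 and 0.029 for B2M in H69, between -0.058 and 1.20 for TAP2 in H69M, and between -1.19 and 0.39 for HLA-E in H69M. The cause was not tested. With 2 libraries a group, and 0 to 31 counts over 8 H69 libraries for HLA-B, HLA-E, TAP1, PSMB8 and PSMB9, fitted knockdown or loading changes of these genes in H69 rest on few reads.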
